A study of Mus musculus with 6 samples.

Results

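The genes of lymphocytes and natural killer (NK) cells were followed in the livers of *Txndc5*-deficient and control mice. The set held 35 of the 16123 genes in the expression table, matched by symbol, and each had 1 row. Its members were chosen with earlier results of these data known. It comprised 6 genes of the T cell receptor complex and its coreceptors, 4 kinases and adaptors of T cell signalling, 4 surface receptors of T cells, 7 genes of the B lineage, 8 genes of cytotoxic and NK cells, 3 genes of lymphocyte cytokines and their receptors, and 3 genes for lymphocyte GTPases and a kinase.

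Poly-A RNA of liver was sequenced from 3 wild type (WT) and 3 knock-out (KO) libraries, each made from a pool of 3 male mice. WT mice were C57BL/6Rj. KO mice were C57BL/6JRj-Txndc5<em2Mdnp>/Ciba, a line carrying a deletion that spans exon 3 of *Txndc5* in all cells, derived from 1 founder and bred from heterozygous crosses. *Txndc5* encodes a disulfide isomerase of the endoplasmic reticulum. Animals of both genotypes began the diet at 2 months of age, received a purified chow for 4 weeks and were fasted for 16 h.

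T cells recognise antigen through a receptor whose CD3 chains pass the signal to the kinases LCK and ZAP70, and B cells through an immunoglobulin that signals through CD79A and CD79B. NK cells and cytotoxic T cells kill target cells with perforin and granzymes. The liver holds resident populations of all of them in its sinusoids, among a far larger mass of hepatocytes, and blood left in the tissue carries more. In whole tissue, fewer cells of a type and less RNA per cell cannot be told apart.

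The deposited table gave 1 value per gene and genotype, on the scale of normalized reads. For genes with few reads, the whole reads behind each pair of values could be recovered for every one of the 6 libraries, as each library has its own size factor. The recovered libraries can be tied to a genotype but not to a numbered pool. They are named here by genotype and by a letter in falling order of size factor, which was 1.31, 1.04 and 0.886 for KO-A, KO-B and KO-C and 1.22, 0.879 and 0.818 for WT-A, WT-B and WT-C. Values for 3 libraries are given below in that order. Reads were resolved for 34 of the 35 members, the exception being *Zap70*, whose values were too high. For each of these 34, the 2 deposited values differed by a smaller ratio than the genotype means of the recovered reads.

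Libraries had between 44040160 and 46050030 clean reads, of which 91.6% to 93.7% mapped. *Txndc5* itself had a deposited value of 2697 in WT and 90.8 in KO, a ratio of 0.0337. *Alb*, *Apoa1* and *Serpina1a*, secreted proteins of hepatocytes, had deposited values of 1329546, 667133 and 187000 in WT and 1332576, 505509 and 169643 in KO. A pair of libraries stood apart from the rest. Over the 4689 genes tested, WT-A held 156103 normalized reads and KO-A 125419, against 98602 to 107431 in the other 4 libraries. For several members the fitted difference is also given without them.

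The promoters of 3 members are shown. *Stk10* and *Blnk* were the members with an unadjusted limma p under 0.05 between genotypes. *Cd22* is a B lineage gene that did not separate. Among members with a promoter, it alone held the inverted repeat described below. Sequences are from RefSeq on GRCm38.p6, where 25 of the 35 members matched 28 promoters, each running from 250 bases before the transcription start to 50 bases after it. The first, chr11:32533016-32533315 on the plus strand, has its CG dinucleotides in capitals. The second, chr19:40994172-40994471 on the minus strand, has in capitals the octamer ATGCAAAT in reverse complement, ATTTGCAT, the word bound by OCT factors in B cell promoters. The third, chr7:30878979-30879278 on the minus strand, has in capitals a match to the inverted repeat TCCC and GGGA with 2 bases between, the core of the word bound by EBF factors.
Stk10: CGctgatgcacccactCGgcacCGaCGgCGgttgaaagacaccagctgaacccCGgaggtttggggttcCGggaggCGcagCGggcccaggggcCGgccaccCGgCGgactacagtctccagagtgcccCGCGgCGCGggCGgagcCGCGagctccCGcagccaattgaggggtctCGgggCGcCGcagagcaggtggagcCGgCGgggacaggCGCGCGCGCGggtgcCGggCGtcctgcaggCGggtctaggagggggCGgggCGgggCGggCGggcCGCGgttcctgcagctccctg
Blnk: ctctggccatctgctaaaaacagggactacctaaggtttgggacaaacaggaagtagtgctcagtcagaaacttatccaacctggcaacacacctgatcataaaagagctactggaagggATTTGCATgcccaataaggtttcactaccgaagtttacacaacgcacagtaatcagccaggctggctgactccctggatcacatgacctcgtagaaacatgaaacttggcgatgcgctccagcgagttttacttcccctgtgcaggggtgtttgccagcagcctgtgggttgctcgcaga
Cd22: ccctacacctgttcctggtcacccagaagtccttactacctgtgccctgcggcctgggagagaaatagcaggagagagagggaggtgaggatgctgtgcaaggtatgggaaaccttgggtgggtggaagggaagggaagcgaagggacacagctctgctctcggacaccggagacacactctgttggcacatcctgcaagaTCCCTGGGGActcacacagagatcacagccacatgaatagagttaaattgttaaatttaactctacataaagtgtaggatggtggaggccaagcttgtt

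The *Stk10* promoter held 39 CG dinucleotides, a number reached by 4.45% of all 32851 promoters of this length, whose median was 7. Among members the next highest number was 23, and *Blnk* and *Cd22* had 7 and 4. The octamer, searched on both strands, was found in 1.74% of all promoters and, among the members with a promoter, in 1, namely *Blnk*, 130 to 123 bases before the start. The inverted repeat was found in 0.904% of all promoters and, among members, in *Cd22* only, 49 to 40 bases before the start. No member promoter held both words, so their matches share no letters. A match describes the letters and not a binding site.

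Levels of the members spanned a wide range once divided by transcript length. *Zap70*, on chr1:36761798-36782818, the kinase recruited to the phosphorylated CD3 chains, had the highest deposited value per kb, 175 as the mean of WT and KO. It was followed by *Ccl5* with 43.0, *Gimap4* with 35.1 and *Cd79a* with 24.2. *Ms4a1*, the gene of CD20, was lowest with 0.410. The 3 CD3 chains lay close together, with 4.29 for *Cd3d*, 4.15 for *Cd3e* and 3.89 for *Cd3g*. Per kb, *Zap70* was therefore 42.2-fold above *Cd3e* and 25.0-fold above *Lck*, the kinase that acts before it. *Cd4*, at 14.8, was 3.58-fold above *Cd3e* and 20.3-fold above *Cd8a*, at 0.731. These levels rest on 1 mean per gene, and neighbours in the order were not tested against each other. Whether the reads assigned to *Zap70* or to *Cd4* come from T cells was not tested.

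**Figure D1:**
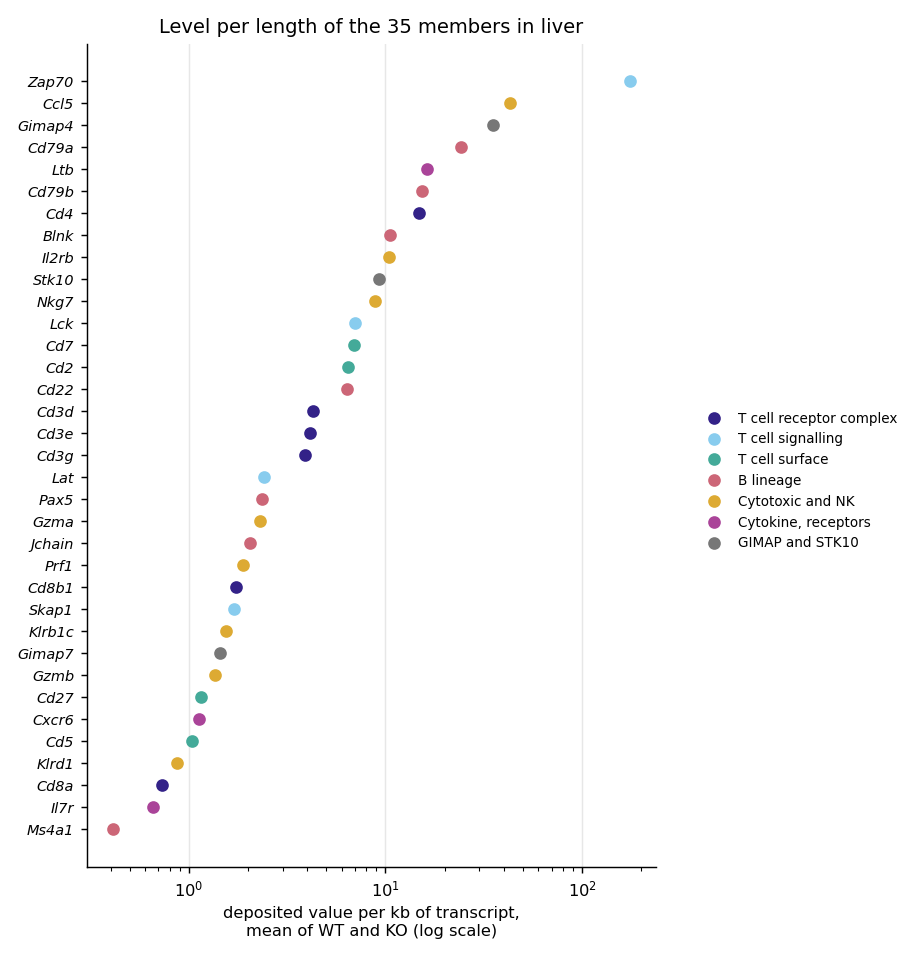
Level of the 35 members in liver, as the deposited value per kb of transcript averaged over WT and KO, on a log scale; each point is a gene, coloured by role. *Zap70* lies apart at 175, the 3 CD3 chains lie between 3.89 and 4.29, and *Ms4a1* is lowest at 0.410.

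The comparison of KO with WT asked whether the lymphocyte genes of the liver differed without *Txndc5*. The 21 members with a summed normalized count between 20 and 400 over the 6 libraries entered the limma fit of 4689 genes. That range leaves out strongly expressed genes, *Txndc5* and *Zap70* among them. Shares of all genes tested therefore cover weakly expressed genes only. None of the 21 passed an adjusted p of 0.05, and over all genes tested 0 passed (0.00%), with a smallest adjusted p of 0.193. Of the members, 2, *Stk10* and *Blnk*, had an unadjusted p under 0.05 by limma, against 1.94% of all genes tested. The quasi-likelihood test of edgeR and DESeq2 likewise called 0 members, with 2 members each under an unadjusted p of 0.05, beside 102 of all 4689 genes in each. In 3 of the 21 members all KO libraries lay above all WT libraries (*Stk10*, *Blnk* and *Jchain*), and in 0 all lay below, while over all genes tested the shares were 3.13% and 2.90%. Fitted differences were above 0 for 11 members and below 0 for 10. Their median was 0.02 on the log2 scale, beside -0.08 over all genes.

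**Figure D2:**
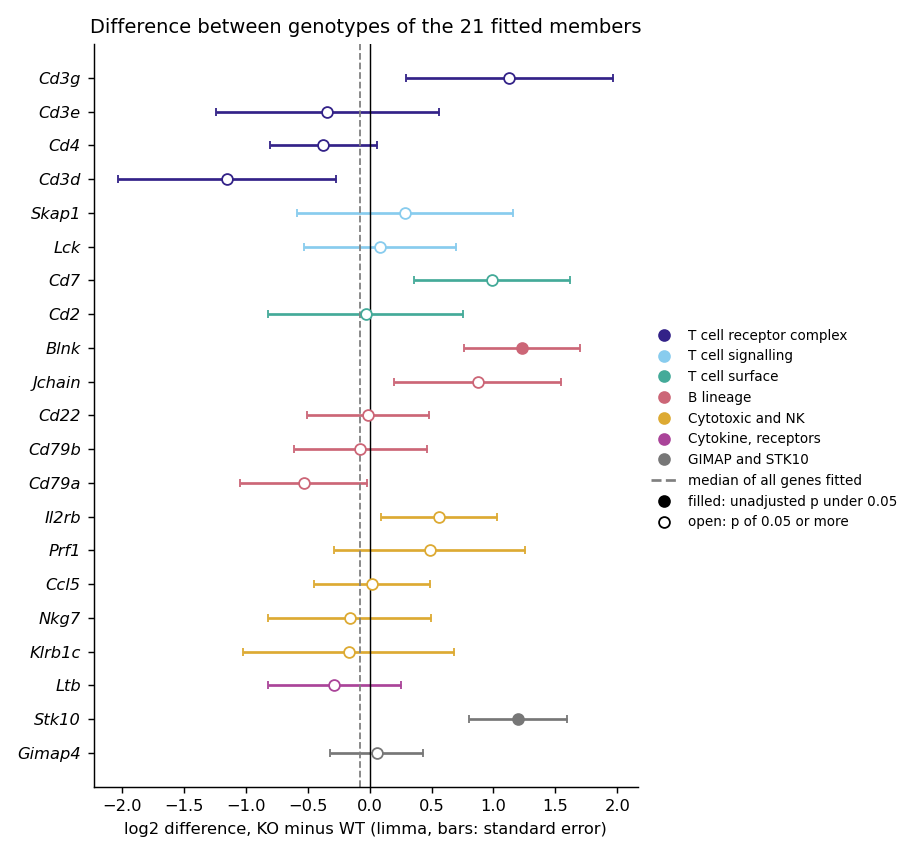
Fitted log2 difference, KO minus WT, of the 21 members in the limma fit, with bars of 1 standard error; the dashed line is the median of all 4689 genes, -0.08. Only the filled points, *Stk10* at 1.20 and *Blnk* at 1.23, have an unadjusted p under 0.05, and no member has an adjusted p under 0.05.

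*Stk10* (chr11:32533305-32624587, GRCm38, plus strand) encodes a serine/threonine kinase that phosphorylates the proteins anchoring actin to the lymphocyte membrane, and it is also expressed outside lymphocytes. It was read 80, 68 and 61 times in the KO libraries and 49, 24 and 16 times in the WT libraries. After normalization this gave 61.0, 65.7 and 68.9 in KO and 40.0, 27.3 and 19.6 in WT. The lowest KO library thus lay above the highest WT library, and the means were 65.2 ± 3.98 and 29.0 ± 10.3 (SD, n = 3 each), a ratio of 2.25. The fitted log2 difference was 1.20 with a standard error of 0.39, an unadjusted limma p of 0.0103 and an adjusted p of 0.999. The exact permutation test gave 0.1, the smallest two-sided p that 3 against 3 libraries allow. Under every alternative tried, the fitted difference stayed between 0.96 and 1.5, with an unadjusted limma p between 0.00187 and 0.0404. The upper value of 1.5 was obtained without KO-A and WT-A together.

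*Blnk* (chr19:40928927-40994535, minus strand) encodes the adaptor that links the B cell receptor to its downstream enzymes. Its normalized reads were 32.8, 35.7 and 26.0 in KO and 16.3, 11.4 and 11.01 in WT, from 142 reads in all. Here too the genotypes did not overlap, with means of 31.5 ± 5.0 and 12.9 ± 2.97 (SD, n = 3 each) and a ratio of 2.44. The log2 difference was 1.23 with a standard error of 0.47, an unadjusted limma p of 0.0216 and an adjusted p of 0.999. Leaving out any one of KO-A, KO-B, WT-B or WT-C took the unadjusted p above 0.05, to at most 0.0739, while the difference stayed between 1.14 and 1.40 under all alternatives. Without KO-A and WT-A together it was 1.37 with an unadjusted limma p of 0.0217. Whether the *Blnk* reads come from B cells was not tested.

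The B lineage genes beside *Blnk* gave other values. *Cd79a* (chr7:24897381-24902197), the signalling chain of the B cell receptor, had 20.6, 19.3 and 36.1 normalized reads in KO and 18.8, 48.9 and 48.9 in WT. Its partner *Cd79b* had 13.0, 17.4 and 23.7 in KO and 9.80, 27.3 and 23.2 in WT. *Cd22*, an inhibitory coreceptor of B cells, had 22.9, 23.2 and 27.1 in KO and 13.9, 33.0 and 31.8 in WT. All 3 genes were lowest in WT-A and overlapped between genotypes, with fitted log2 differences of -0.53, -0.07 and -0.01 and standard errors of 0.51, 0.54 and 0.49. Without KO-A and WT-A the differences were -0.86, -0.30 and -0.36, with standard errors of 0.44, 0.49 and 0.45. *Jchain* (chr5:88519809-88527891), which joins the polymers of secreted IgM and IgA, had 6.10, 4.83 and 6.77 in KO and 2.45, 3.41 and 2.45 in WT. It did not overlap, but it rested on 27 reads, and its difference of 0.87 had a standard error of 0.67 and an unadjusted limma p of 0.220. *Pax5*, the factor that fixes B cell identity, had 1.52, 1.93 and 0 in KO and 3.27, 9.10 and 1.22 in WT from 17 reads, too few for the fit. *Ms4a1* had 6 reads in all. Summed over the 7 B lineage genes, the libraries held 99.1, 102 and 120 normalized reads in KO and 66.1, 134 and 119 in WT. The means of these sums were 107 ± 11.1 and 106 ± 35.7 (SD, n = 3 each).

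**Figure D3:**
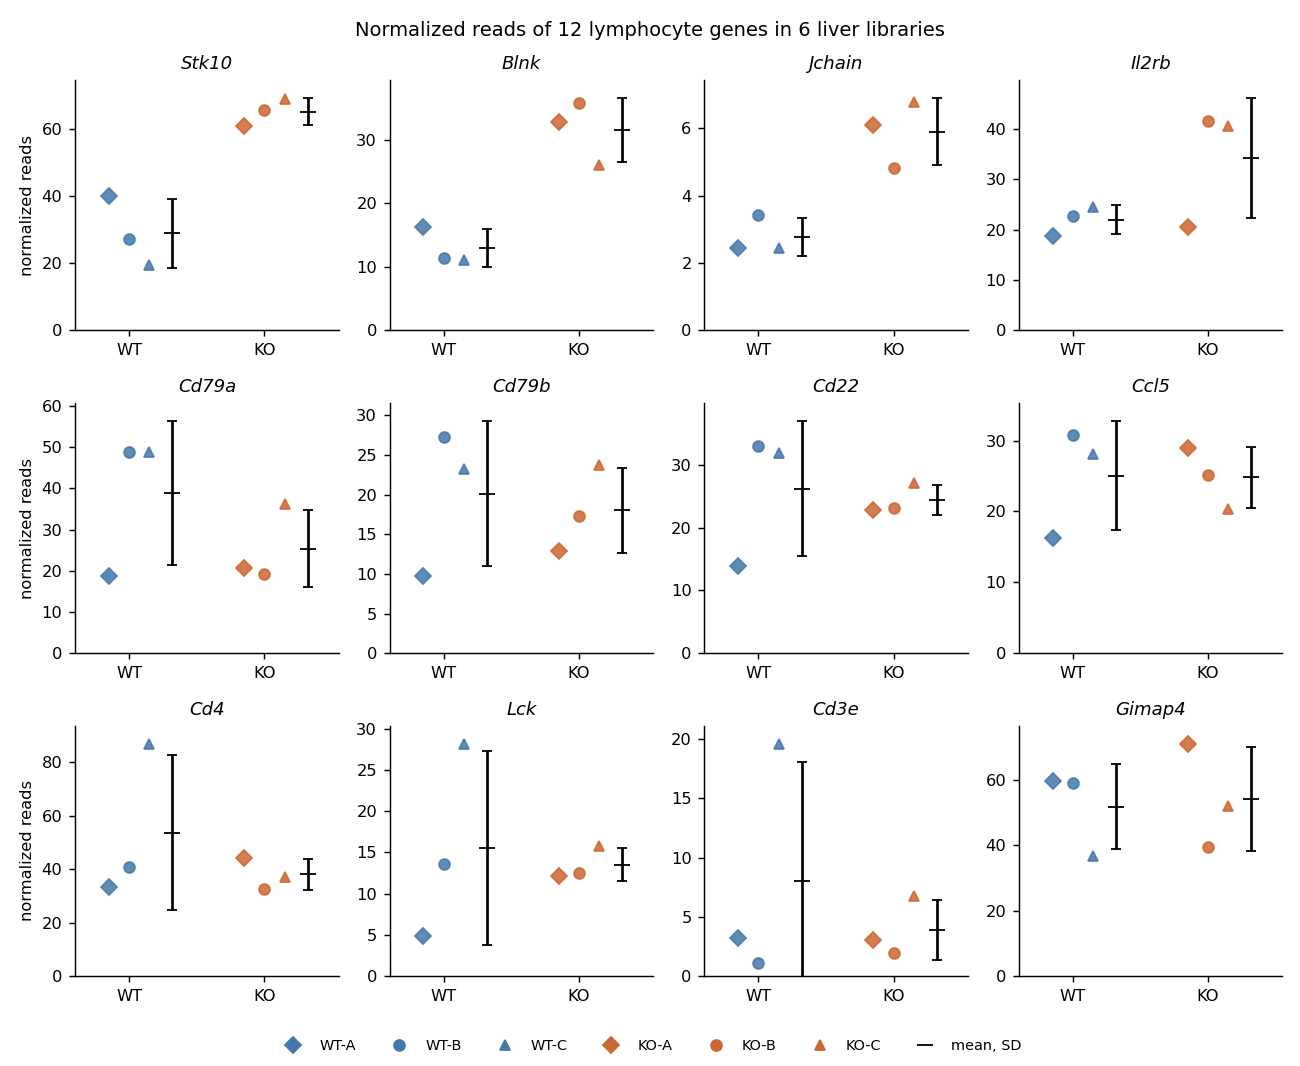
Normalized reads of 12 members in the 6 libraries; each symbol is a library (diamond A, circle B, triangle C), and the bars are the mean and SD of each genotype. The KO and WT symbols do not overlap for *Stk10*, *Blnk* and *Jchain*, the 3 B cell genes *Cd79a*, *Cd79b* and *Cd22* are lowest in WT-A, and *Cd4*, *Lck* and *Cd3e* are highest in WT-C.

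The genes of the T cell receptor complex spread widely among the WT libraries. *Cd4*, the coreceptor of helper T cells, had 44.2, 32.8 and 37.3 normalized reads in KO and 33.5, 40.9 and 86.8 in WT. *Cd3e* had 3.05, 1.93 and 6.77 in KO and 3.27, 1.14 and 19.6 in WT, and *Cd3d* had 4.57, 0 and 6.77 in KO and 4.90, 4.55 and 13.5 in WT. These 3 genes were highest in WT-C, and so was *Lck*, with 12.2, 12.6 and 15.8 in KO and 4.90, 13.6 and 28.1 in WT. Their log2 differences were -0.37 for *Cd4*, -0.34 for *Cd3e*, -1.15 for *Cd3d* and 0.09 for *Lck*, with standard errors of 0.43, 0.90, 0.88 and 0.61. Without WT-C the difference was 0.03 for *Cd4* and 0.58 for *Cd3e*, so that their sign turned. The difference of *Lck* was -0.45 without KO-A and WT-A, also of the opposite sign.

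*Cd3g*, which lies next to *Cd3d* on chromosome 9 in the opposite orientation, had 9.91, 2.90 and 4.52 in KO and 0.816, 4.55 and 1.22 in WT. Its log2 difference of 1.13 had a standard error of 0.84 and the opposite sign to that of *Cd3d*, but both were within 1.5 standard errors of 0. Without KO-A and WT-A it was 0.40 with a standard error of 0.96. The 3 chains together held 17.5, 4.83 and 18.1 in KO and 8.98, 10.2 and 34.2 in WT, from 92 reads. *Cd8a* and *Cd8b1*, the coreceptor chains of cytotoxic T cells, had 15 reads each. Their normalized reads were 6.86, 0 and 2.26 in KO and 0.816, 0 and 3.67 in WT for *Cd8a*, and 4.57, 1.93 and 2.26 in KO and 0, 2.27 and 3.67 in WT for *Cd8b1*. Neither reached the fit, and both overlapped between genotypes.

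Below the receptor, *Zap70* could be given only by its deposited values, 267 for KO and 208 for WT, which differ by 0.36 on the log2 scale and have no replicate spread. *Lat*, the membrane adaptor that ZAP70 phosphorylates, had 0.762, 3.86 and 10.2 normalized reads in KO and 0, 0 and 3.67 in WT from 17 reads. *Skap1*, an adaptor for integrin activation, had 7.62, 3.86 and 1.13 in KO and 5.72, 1.14 and 2.45 in WT. Both overlapped. Of the surface receptors, *Cd7* had 6.86, 13.5 and 9.03 in KO and 2.45, 3.41 and 8.56 in WT, a log2 difference of 0.99 with a standard error of 0.63 and an unadjusted limma p of 0.141. Only its lowest KO and highest WT libraries crossed. *Cd2*, an adhesion receptor, had 9.14, 1.93 and 10.2 in KO and 1.63, 10.2 and 11.01 in WT. *Cd5*, a brake on receptor signalling, had 0.762, 3.86 and 1.13 in KO and 0, 2.27 and 4.89 in WT, and *Cd27*, a costimulatory receptor, had 2.29, 3.86 and 0 in KO and 2.45, 2.27 and 0 in WT. Each of the last 2 rested on 12 reads, and *Cd27* overlaps *Vamp1* on the other strand, so its reads are uncertain.

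Cytotoxic and NK cell genes overlapped between genotypes, with *Gzmb* as the exception. *Il2rb* (chr15:78479256-78495271), the shared beta chain of the receptors for interleukins 2 and 15, had 20.6, 41.5 and 40.6 normalized reads in KO and 18.8, 22.7 and 24.5 in WT. Both smaller KO libraries lay above all WT libraries, whereas KO-A lay among them. Its log2 difference was 0.56 with a standard error of 0.47, and 0.78 with a standard error of 0.43 without KO-A and WT-A. *Ccl5*, a chemokine of activated T and NK cells, had 29.0, 25.1 and 20.3 in KO and 16.3, 30.7 and 28.1 in WT, a log2 difference of 0.02 with a standard error of 0.47. *Nkg7*, a protein of cytotoxic granules, had 6.10, 6.76 and 5.65 in KO and 2.45, 11.4 and 11.01 in WT. *Prf1*, perforin, had 8.38, 3.86 and 2.26 in KO and 1.63, 3.41 and 3.67 in WT. The last 3 genes overlapped between genotypes.

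*Gzmb*, granzyme B, was read 2, 6 and 3 times in KO and 1, 0 and 0 times in WT, which is the pattern without overlap, but on 12 reads it stayed under the limit of the fit. With that limit lowered to a sum of 1, its log2 difference was 1.79 with an unadjusted limma p of 0.0250. In that fit 3 of 34 members had an unadjusted limma p under 0.05, beside 198 of all 7583 genes, with 0 called. *Gzma*, granzyme A, had 2.29, 3.86 and 1.13 normalized reads in KO and 2.45, 0 and 2.45 in WT from 13 reads. *Klrb1c*, the NK1.1 receptor, had 1.52, 7.72 and 2.26 in KO and 5.72, 1.14 and 6.11 in WT. *Klrd1*, the CD94 chain of NK receptors, had 4 reads in all, each of them in WT-B. The 8 cytotoxic and NK genes summed to 69.3, 94.6 and 75.6 in KO and 48.2, 73.9 and 75.8 in WT. *Klrb1c* overlaps an annotated gene model, *Gm44511*, and shares this limit with *Gimap7* and *Cxcr6*, which overlap *Gm28053* and *Fyco1*.

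Among cytokine and receptor genes, *Ltb*, lymphotoxin beta, had 9.91, 18.3 and 20.3 in KO and 12.2, 30.7 and 18.3 in WT, a log2 difference of -0.28 with a standard error of 0.53. *Il7r*, the receptor for the survival factor of T cells, had 4.57, 0.965 and 1.13 in KO and 4.90, 1.14 and 0 in WT. *Cxcr6*, a homing receptor of liver lymphocytes, had 1.52, 0 and 0 in KO and 8.98, 2.27 and 0 in WT, with 11 of its 15 reads in WT-A. *Gimap4*, a GTPase of the lymphocyte survival family, had the most reads of the resolved members, 335, which gave 70.9, 39.6 and 51.9 in KO and 59.6, 59.1 and 36.7 in WT. Its log2 difference was 0.06 with a standard error of 0.38. *Gimap7* of the same family had 3.81, 3.86 and 0 in KO and 0, 3.41 and 0 in WT. None of these 5 genes separated the genotypes.

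The 34 resolved members summed to 433, 408 and 445 normalized reads in KO and 300.5, 419 and 456 in WT. The means were 429 ± 18.6 and 392 ± 81.2 (SD, n = 3 each), so the difference of 37.0 was smaller than the spread among WT libraries. It was -8.65 without WT-A and 69.2 without WT-C. Without *Stk10* and *Blnk* the means were 332 ± 22.3 and 350 ± 94.4 over 32 genes. The low WT value came from WT-A. That library was the lowest of the 6 for 11 of the 21 fitted members and the highest for 0, although over all genes tested it was the lowest for 11.3% and the highest for 37.6%. With trimmed mean (TMM) scaling it was the lowest for 13 members and for 21.2% of all genes. The T cell receptor sum showed the spread at the other end, with 73.1, 39.6 and 59.8 in KO and 43.3, 53.5 and 128 in WT.

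**Figure D4:**
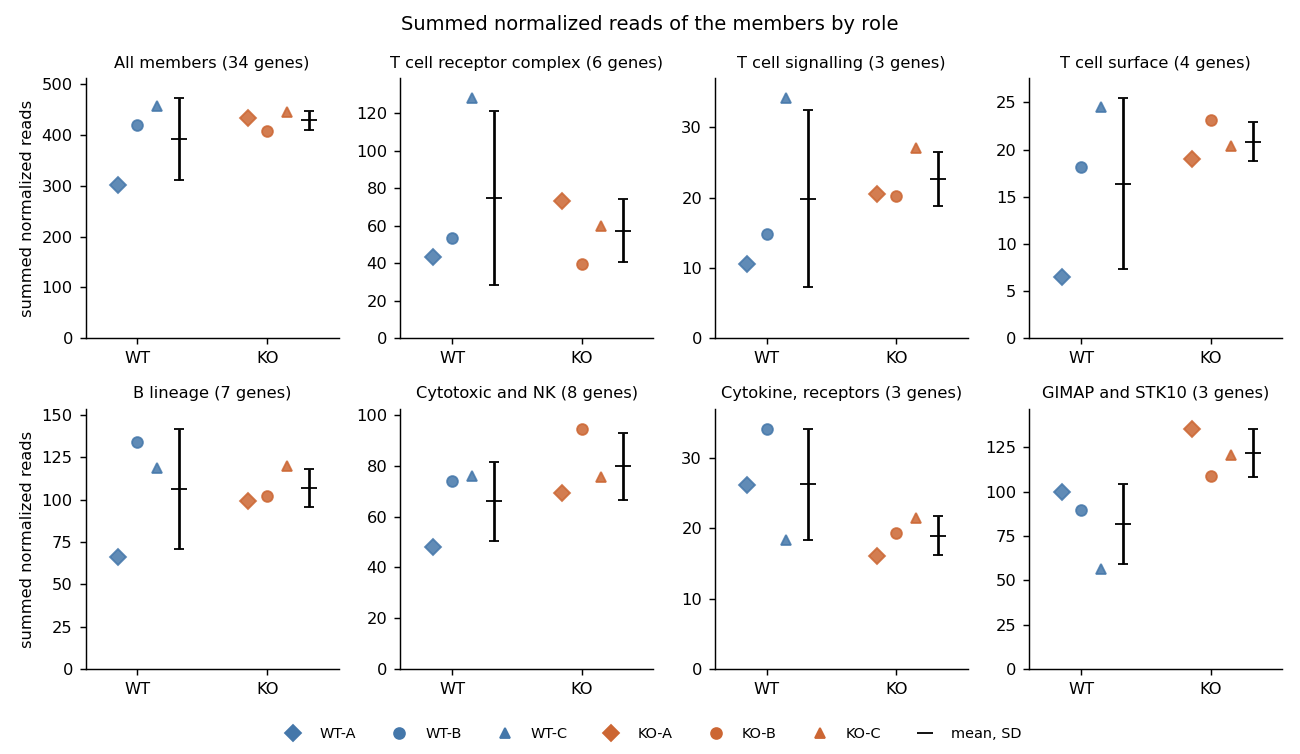
Summed normalized reads of the members by role in the 6 libraries, with the mean and SD of each genotype; symbols as diamond A, circle B and triangle C. WT-A is lowest in the sum of all members (300.5) and of the B lineage (66.1). WT-C is highest for the T cell receptor complex (128). The KO and WT symbols do not overlap for the sum of the 3 GIMAP and STK10 genes. Of these only *Stk10* separates on its own, while *Gimap4* and *Gimap7* each overlap.

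In the deposited values, 33 members had a mean of at least 1. *Blnk*, *Stk10* and *Cd7* were past a log2 ratio of 0.5 with a pseudocount of 1, at 0.94, 0.95 and 0.52, all higher in KO, and 0 members were past -0.5. Over the 14106 genes with such a mean, 2.38% were past 0.5 and 7.17% past -0.5. These values come from the same reads as the fit, hold 1 number per genotype and give no test. They also understate ratios. *Jchain* had deposited values of 3.57 in WT and 5.10 in KO, but mean normalized reads of 2.77 and 5.90. The count therefore depends on how the values were made. The count was 10 with a pseudocount of 0.1, 6 when centred on the median of all genes and 0 at a log2 limit of 1. The 10 took in both directions. *Pax5*, with deposited values of 3.43 in WT and 2.25 in KO, and *Cxcr6*, with 2.53 and 1.73, were among them and lower in KO. These alternative counts have no share of all genes beside them.

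A further 80 genes of the same cells, in 4 lists, were looked at beside the members. Of these 71 had a row, 39 entered the fit and 0 passed an adjusted limma p of 0.05, with 19 differences above 0 and a median of -0.01 on the log2 scale. *Ikzf3*, a transcription factor of lymphocytes, was the only one of the 39 with an unadjusted p under 0.05, at 0.0327, beside 1.94% of all genes tested, and had 7.62, 3.86 and 10.2 normalized reads in KO and 3.27, 0 and 0 in WT. *Tbx21*, the T-bet factor of NK and type 1 T cells, also did not overlap, with 6.10, 6.76 and 7.90 in KO and 3.27, 3.41 and 2.45 in WT. *Gimap5* did not overlap in the other direction, with 5.33, 2.90 and 4.52 in KO and 5.72, 9.10 and 6.11 in WT. These 3 genes had at most 10 reads in any library. Libraries did not overlap in 2 of the 39 genes with KO higher and in 1 with KO lower, beside 3.13% and 2.90% of all genes.

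The most abundant genes of these 4 lists are given by their deposited values, and whether their reads come from lymphocytes was not tested. Of T cell genes, *S1pr1* had deposited values of 213 in WT and 246 in KO, *Fyn* had 78.8 and 77.2, and *Tcf7* had 39.2 and 45.9. Of B cell genes, the deposited values were 71.8 and 62.8 for *Ly6d*, 48.9 and 47.9 for *Cd37*, and 27.1 and 24.2 for *Cd72*. Besides *Tbx21*, the NK list was led by *Ctsw* with 7.68 in WT and 7.5 in KO and *Klrk1* with 3.56 and 3.16. Among genes shared by lymphocytes, *Jak3* had 426 and 427, *Rac2* 146 and 180, and *Coro1a* 117 and 106.

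Markers of other cells were read in the same way, since blood and resident leukocytes enter the same tissue sample. Of the 8 erythroid genes described, all had a higher deposited value in KO, 4 of them past a log2 ratio of 0.5. *Hba-a1*, *Hba-a2* and *Hbb-bs*, the globins, had 55601, 31422 and 25147 in WT and 82090, 44170 and 43522 in KO. *Ahsp* and *Epb42* were at 0 in every WT library. Together these 2 genes held between 1.52 and 5.79 normalized reads in the KO libraries. Erythroid values were thus higher in the genotype in which *Stk10* and *Blnk* were higher, and their part in those results was not tested.

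The Kupffer cell list, 12 genes of liver macrophages, had a median deposited log2 ratio of 0.17 (range -0.05 to 0.61), with *C1qb* at 1050 in WT and 1137 in KO, *Cd5l* at 832 and 1142, and *Csf1r* at 886 and 989. The 12 neutrophil genes summed to 52.6, 51.2 and 80.2 normalized reads in KO and 49.0, 59.1 and 53.8 in WT. Their leading genes by deposited value were *Csf3r* with 24.8 in WT and 29.0 in KO, *S100a9* with 4.88 and 6.22, and *Cxcr2* with 4.36 and 5.56, while the list had a median log2 ratio of 0.03 (range -0.37 to 0.45). The 8 dendritic cell genes summed to 47.2, 30.9 and 38.4 in KO and 47.4, 31.9 and 34.2 in WT, led by *Itgax* with 14.96 and 16.6, *Batf3* with 5.91 and 6.55, and *Xcr1* with 4.97 and 3.82. Sums of both lists overlapped between genotypes. Endothelial genes were led by *Clec4g* with 682 in WT and 663 in KO, *Stab1* with 676 and 592, and *Stab2* with 628 and 571. Stellate cell genes were led by *Dcn* with 1296 and 915, *Reln* with 497 and 558, and *Des* with 142 and 128. Of the 8 stellate genes, 2 were past a log2 ratio of 0.5 and 2 past -0.5 (range -0.53 to 0.75). Cholangiocyte genes were led by *Spp1* with 122 and 157, *Sox9* with 96.3 and 95.1, and *Krt19* with 35.1 and 28.9. Of the 71 marker genes of other cells 18 entered the fit, and 0 of these passed an adjusted limma p of 0.05.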

How the data were processed

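The authors sequenced poly-A liver RNA of 3 WT and 3 KO pools. The submitters' notes name HISAT2, StringTie, RSEM and Bowtie2 and the mm10 build, and the kit does not mark strand. The authors deposited a normalized signal per gene and genotype, clean read counts per pool, and mapping and rRNA rates in percent (rRNA 0.26% to 0.69%); their fold changes and p-values were not used. Columns of samples outside this study numbered 0. For each gene, 3 times the summed deposited signal is a sum of whole reads divided by 6 size factors. Reads per library were found by enumeration (8063 of 8081 genes with a sum up to 400), with genotypes taken from the 2 labelled columns. For 15 genes with several solutions the deposited direction decided, so their direction is no check. Of 1077 genes past a log2 ratio of 0.5, 1077 went in the deposited direction. The design expected such recovery. log2(normalized reads + 1) was fitted for 4689 genes with limma 3.58.1 (trended variance, Benjamini-Hochberg), with edgeR 4.0.16 and DESeq2 1.42.0 as alternatives, in R 4.3.3. The steps were tested on simulated data. P-values measure the spread between pools, which average 3 mice each. Members and gene lists were chosen with earlier results of these data known. All members were accounted for, those with at least 10 reads by library, and every other list by its 3 genes of highest mean value plus any gene singled out, such as *Ikzf3*, *Gimap5*, *Ahsp* and *Epb42*, which were chosen after their values were seen. One item of the red cell list is not reported here. Gene positions are from GENCODE M21.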

Additional observations from a re-analysis of the deposited data

How the results depend on the processing

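No paired analysis was possible because recovered libraries could not be matched to numbered pools and the labelled pools of the genotypes share fewer than 2 numbers. The count of members called was 0 under every alternative tried. Over all genes tested, 1 gene was called without a variance trend (*Moap1*), 1 by DESeq2 (*Moap1*) and 2 with a term for the largest library of each genotype (*Moap1* and *2810474O19Rik*); the cause was not tested. The number of members with an unadjusted limma p under 0.05 lay between 1 and 2 when each library was left out in turn, *Stk10* remaining in each. Over all 4689 genes that count ran from 36 without KO-B to 235 without KO-A in the same fits. Of 326 fitted differences of the 21 members under all alternatives, 287 kept their sign and call. The remaining 39, in 13 members, turned in sign, and the cause was not tested. Fits that changed only the variance trend or the range of sums, or added the term for the largest library, repeat the main difference. Their signs could not turn, so the 287 include values whose sign was fixed in advance. The 8 members that kept their sign throughout were *Stk10*, *Blnk*, *Jchain*, *Il2rb*, *Cd7*, *Cd79a*, *Cd3d* and *Cd3g*. Leaving out each library in turn, the log2 difference ranged from -1.05 to 0.58 for *Cd3e*, -0.64 to 0.030 for *Cd4*, -0.52 to 0.63 for *Lck*, -0.19 to 0.82 for *Skap1*, -0.75 to 0.59 for *Cd2*, -0.40 to 0.20 for *Cd22*, -0.50 to 0.19 for *Cd79b*, -0.77 to 0.15 for *Nkg7*, -0.73 to 0.19 for *Klrb1c*, -0.25 to 0.19 for *Ccl5*, -0.59 to 0.044 for *Ltb* and -0.17 to 0.26 for *Gimap4*. TMM scaling gave 0.0059 for *Cd2*, 0.078 for *Cd22* and 0.013 for *Cd79b*. edgeR gave -0.18 for *Lck* and -0.0016 for *Ccl5*, and DESeq2 gave -0.18 for *Lck*. Without both largest libraries, an alternative chosen after seeing the data, the values that turned were -0.45 for *Lck*, -0.19 for *Prf1*, 0.45 for *Klrb1c*, -0.37 for *Ccl5* and -0.039 for *Gimap4*. The summed level of the members, higher in KO by 37.0, was -8.65 without WT-A and 69.2 without WT-C. Members past the fold in the deposited values numbered 10 with a pseudocount of 0.1, 6 when centred on the median and 0 at a log2 limit of 1. No share of all genes stands beside these counts, so they cannot be read as a result about the members. Leaving out both largest libraries together gave 2 members under an unadjusted limma p of 0.05 and 0 called, beside 203 of all 4689 genes under 0.05. Depth limits the test, as 13 of the 34 resolved members fell under the low limit of the fit and 2 had fewer than 10 reads.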
